A study of Mus musculus with 12 samples.

Results

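The immunoproteasome and the machinery that loads peptides onto MHC class I molecules were followed at the RNA level in cultured mouse OPCs (oligodendrocyte precursor cells), which proliferate and later differentiate into the cells that make myelin. The set is a named list of 10 genes, of the 55536 genes in the annotation: the catalytic subunits Psmb8, Psmb9 and Psmb10, the activator subunits Psme1 and Psme2, the transporter subunits Tap1 and Tap2, the loading factors Tapbp and Tapbpl, and the aminopeptidase Erap1. All 10 passed the filter on low counts (at least 10 counts in at least 4 libraries), which 17919 genes passed. The OPCs came from brains of P4 to P6 pups of both sexes, several brains pooled per preparation, from Sox10:Cre animals on C57BL/6j crossed with RCE:loxP (EGFP) reporter animals on a C57BL/6xCD1 mixed background. Cre is driven by Sox10, so EGFP marks the oligodendrocyte lineage and not the precursor stage alone. Cells were selected either by this GFP or by CD140a (the PDGF receptor α), and which selection gave which library is not stated in the sources used here. All groups were cultured in proliferation medium with PDGFaa and bFGF. Ctr-OPCs were left untreated, the Dexa group received 1 µM dexamethasone (a synthetic glucocorticoid) for 48 h, and IFN-γ-treated OPCs (IFNg) received 100 ng/ml of this cytokine for 48 h. Each group has 4 libraries, and the replicate numbers were taken as litters. The table of Dexa replicate 3 was cut off and lists only Psme1, Psme2 and Erap1 of the 10 genes whole. Most comparisons therefore hold 4 Ctr, 3 Dexa and 4 IFNg libraries.

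The proteasome cuts cellular proteins into peptides inside a barrel, the 20S core, whose catalytic sites sit on the subunits encoded by Psmb5, Psmb6 and Psmb7. In cells exposed to interferon these can be replaced in newly assembled particles by the immunosubunits encoded by Psmb8, Psmb9 and Psmb10, which alters the ends of the peptides produced. Peptides then enter the endoplasmic reticulum through the TAP transporter, are trimmed by ER aminopeptidases and are loaded onto class I heavy chains bound to β2-microglobulin, with tapasin holding the loading complex together. Cells of the healthy nervous system are known for low class I presentation, and IFN-γ is a classical inducer of the pathway.

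The 11 full libraries held between 19209063 and 52074652 reads in genes. Treatment was visible in its check genes. Irf1, an interferon-induced transcription factor, had a log2 fold change of 6.02 ± 0.08 (SE) in IFNg, and the glucocorticoid targets Fkbp5, Per1 and Tsc22d3 had 1.41 ± 0.08, 1.60 ± 0.10 and 0.81 ± 0.17 in Dexa, all 4 with a DESeq2 adjusted p under the threshold of 0.05. Tsc22d3 was also called higher in IFNg and was not called between IFNg and Dexa, so it does not set the Dexa group apart. Without the replicate block 2 of the 3 Dexa calls remained, and Tsc22d3 was not called in IFNg. The 7 OPC markers were detected in every full library, with a summed TPM (the share of a library's transcripts that a gene takes, scaled per transcript length) of 802 to 1857 in Ctr, 961 to 1955 in Dexa and 667 to 1437 in IFNg. In IFNg 4 of the 7 were called lower, with Gpr17, Cspg4 and Sox10 at the lowest adjusted p. The median log2 fold change of the 7 was -0.56. In Dexa, Cspg4 alone was called, and higher. Without the replicate block none of the 7 was called in IFNg or Dexa. Microglia, which express the immunoproteasome strongly, had low marker levels: the 15 microglia markers summed to 0.808 to 1.53 TPM in Ctr and 1.28 to 2.13 TPM in IFNg, 14 of 15 stayed under 1 TPM in all full libraries, and the highest values of Ptprc, Csf1r and Tmem119 were 0.0240, 0.0712 and 0.0854 TPM. The highest markers were Cd68, up to 1.17 TPM and with 25 to 73 reads per Ctr library, and P2ry12, up to 0.471 TPM. P2ry12 had 0.201 ± 0.107 TPM in Ctr and 0.316 ± 0.130 in IFNg (SD). The 3 microglia markers that passed the filter on low counts were not called in any comparison. The 6 endothelial markers summed to at most 1.48 TPM and the 4 T cell markers to at most 0.270 TPM in any full library. Of the endothelial markers, Kdr was called lower in IFNg and Flt1 higher in Dexa. Without the replicate block 0 endothelial markers were called in IFNg and 1 in Dexa. The 5 astrocyte markers summed to 14.0 to 52.2 TPM in Ctr, 24.8 to 62.7 TPM in Dexa and 23.9 to 64.6 TPM in IFNg. In IFNg, Gfap and Aldh1l1 rose (4.10 ± 0.34 and 0.76 ± 0.15 on the log2 scale), Aqp4 and Gja1 fell (-0.81 ± 0.18 and -0.36 ± 0.09) and Slc1a2 had 0.35 ± 0.15, which did not pass the test. Without the replicate block only Gfap of these 5 was called in IFNg. In Dexa, Gfap was called by DESeq2 at 1.64 ± 0.38 (adjusted p = 0.00129) but not by edgeR (adjusted p = 0.108). The 4 neuron markers summed to 3.12 to 4.91 TPM in Ctr, 4.84 to 6.80 TPM in Dexa and 3.88 to 6.38 TPM in IFNg. Syt1 was called higher and Snap25 lower in IFNg, and Snap25 was called higher in Dexa. Without the replicate block 1 neuron marker was called in IFNg and 0 in Dexa. The part of these cells in the results below was not tested. In bulk libraries more cells that express a gene and more RNA per cell cannot be told apart.

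On GRCm38, 5 of the 10 genes lie on chromosome 17. Psmb9, Tap1, Psmb8 and Tap2 follow each other within 34335 bases (chr17:34181987-34216321), and Tapbp lies at chr17:33915899-33929292. Psme1 (chr14:55578123-55581529) and Psme2 (chr14:55587441-55591113) are neighbours, while Psmb10 (chr8:105935735-105938444), Tapbpl (chr6:125223933-125231860) and Erap1 (chr13:74639568-74693201) stand apart from the other members. Psmb10 overlaps Gm16156, Tapbpl overlaps Vamp1 and Erap1 overlaps Cast, each on the other strand. Psmb9 and Tap1 point away from each other: their RefSeq starts are 226 bases apart on opposite strands, and their gene models overlap by 212 bases, where the sources used here do not say whether reads were counted by strand. RefSeq promoter windows of GRCm38.p6, from 250 bases before to 50 bases after a start, were at hand for 8 of the 10 genes (2 windows for Psme2). They were searched on both strands for the letters of the gamma-activated site (GAS, TTCNNNGAA) and of an IRF element bound by interferon regulatory factors (GAAANNGAAA). Of all 32851 windows, 8.30% held the first and 3.44% the second. The letters were found in 3 of the 8 genes, once each and with no overlap between the motifs, and these stretches are shown because they hold the matched letters; whether they act as sites was not tested. Capitals mark the match and each is read on the strand of the gene. The Psmb8 match begins 97 bases before the RefSeq start (chr17:34198088-34198116, plus strand), the Erap1 match 4 bases before it (chr13:74639839-74639868, plus strand) and the Psme1 match 9 bases after it (chr14:55578493-55578522, plus strand). The annotated transcript with the highest mean TPM in IFNg begins before the window for Psmb8 (chr17:34197721) and Erap1 (chr13:74639568). For Psme1 it begins inside the window, at chr14:55578360. All 3 matches thus lie inside the gene models, downstream of where those transcripts begin. The Erap1 and Psme1 matches are the reverse complement of the IRF letters.
Psmb8, GAS: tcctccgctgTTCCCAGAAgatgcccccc
Erap1, IRF element: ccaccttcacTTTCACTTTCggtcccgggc
Psme1, IRF element: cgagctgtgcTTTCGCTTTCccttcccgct
The windows of Psmb9, Tap1, Psmb10, Psme2 and Tapbp held neither string of letters. For Psmb9 and Tapbp the annotated transcript with the highest mean TPM in IFNg begins outside the window, at chr17:34187764 and chr17:33919637.

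Of the catalytic immunosubunits, Psmb8 and Psmb9 had the highest fold changes of the 10 genes in IFNg, while Psmb10 stood in sixth place. Psmb8, which encodes the immunosubunit that takes the place of Psmb5, had normalized counts (counts divided by the library's size factor) of 27.5, 48.9, 45.5 and 51.0 in Ctr replicates 1 to 4. They were 54.0, 62.3 and 48.9 in Dexa replicates 1, 2 and 4, and 17617, 18017, 19417 and 19738 in IFNg replicates 1 to 4. All IFNg libraries lay far above the Ctr libraries, and Dexa overlapped Ctr. The fitted log2 fold change in IFNg was 8.76 ± 0.14 (SE), the largest of the 10. Before treatment Psmb8 rested on 30 to 79 reads per Ctr library, so its baseline is imprecise, and the fold change ran from 8.62 to 8.85 when single libraries were left out and was 8.28 with protein-coding transcripts alone.

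Psmb9, the counterpart of Psmb6, had 30.3, 30.4, 19.3 and 22.8 normalized counts in Ctr. It had 38.8, 18.5 and 29.7 in Dexa, and 7704, 6406, 7175 and 6609 in IFNg. The groups were as clearly apart as for Psmb8, with a fold change of 8.07 ± 0.17 on the log2 scale from 21 to 49.1 reads per Ctr library. Psmb10, the counterpart of Psmb7, started higher, at 536, 517, 331 and 376 normalized counts in Ctr. It had 521, 540 and 374 in Dexa, and 10741, 11025, 9690 and 8857 in IFNg. The Ctr and Dexa libraries of one litter were nearly level, and replicates 1 and 2 lay above replicates 3 and 4 in all 3 groups that list them. The log2 fold change of Psmb10 in IFNg was 4.54 ± 0.10.

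**Figure D1:**
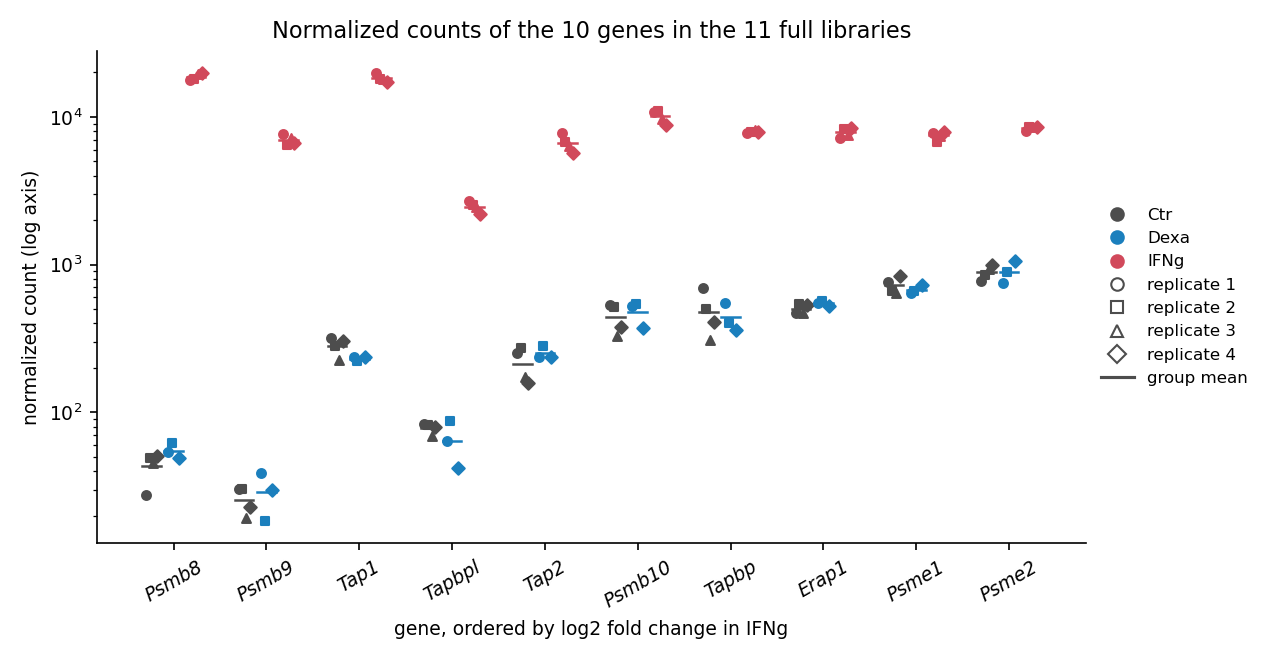
Normalized counts (y axis, logarithmic) of the 10 genes (x axis) in the 11 full libraries, with Ctr in grey, Dexa in blue and IFNg in red, symbols for the replicates and short lines for group means. Every IFNg library lies above every Ctr library for each gene, and Dexa libraries overlap with Ctr.

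How far the 3 immunosubunits approached their constitutive counterparts was read as the share of the immunosubunit in the summed TPM of each pair. Psmb5, Psmb6 and Psmb7 RNA stood at 84.6 ± 11.4, 174 ± 16 and 91.2 ± 8.3 TPM in Ctr (SD, n = 4) and at 97.3 ± 13.2, 213 ± 30 and 119 ± 20 TPM in IFNg. Psmb8 made up 1.02% ± 0.29 of its pair in Ctr, 1.16% ± 0.17 in Dexa (SD, n = 3) and 82.2% ± 2.2 in IFNg, between 79.4% and 84.4% in single libraries. Psmb9 made up 0.199% ± 0.037 in Ctr, 0.269% ± 0.121 in Dexa and 38.3% ± 1.6 in IFNg. Psmb10 made up 14.8% ± 1.5 in Ctr, 16.6% ± 1.4 in Dexa and 74.9% ± 1.3 in IFNg. In IFN-γ-treated OPCs the immunosubunit RNA thus exceeded its counterpart for Psmb8 and Psmb10 in all 4 libraries and stayed below it for Psmb9 in all 4. Each IFNg share lay above all Ctr shares, which in an exact two-sided permutation test gave p = 0.0286, the smallest that 4 against 4 libraries allow. After Benjamini-Hochberg adjustment over 3 pairs and 2 contrasts this was 0.0571, which does not pass 0.05. The Dexa shares differed from Ctr by 0.14, 0.07 and 1.75 percentage points, with exact p of 0.629, 0.343 and 0.229.

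The size of the share depended on which transcripts were counted. With protein-coding transcripts alone, an alternative chosen after seeing the data, Psmb10 made up 3.37% ± 0.57 in Ctr and 51.2% ± 0.5 in IFNg, Psmb8 0.679% ± 0.276 and 71.2% ± 3.2, and Psmb9 0.209% ± 0.052 and 34.8% ± 0.8. With reads in place of TPM, which ignores transcript length, Psmb9 reached 54.5% ± 1.6 in IFNg.

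**Figure D2:**
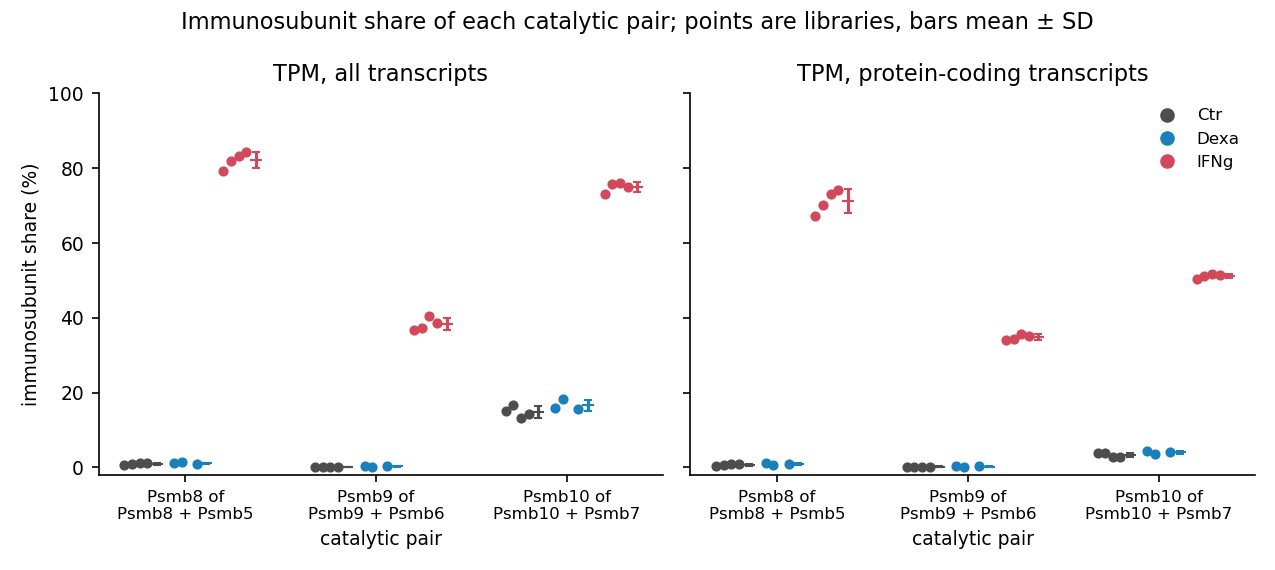
Share of the immunosubunit in the summed TPM of each catalytic pair (y axis, percent) for the 3 pairs (x axis), from all transcripts on the left and from protein-coding transcripts on the right, with points for libraries and bars for mean ± SD. IFNg shares are 82.2%, 38.3% and 74.9% on the left and 71.2%, 34.8% and 51.2% on the right.

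Psme1 and Psme2 encode the α and β subunits of PA28, the cap that opens the 20S barrel. By TPM over all transcripts they were, together with Psmb10, the most abundant of the 10 genes before treatment. Psme1 and Psme2 had the smallest fold changes. Psme1 had 763, 661, 641 and 843 normalized counts in Ctr, 642, 661 and 730 in Dexa and 7810, 6711, 7455 and 7947 in IFNg, a log2 fold change of 3.37 ± 0.08. Psme2 had 775, 851, 931 and 992.5 in Ctr, 745, 885 and 1062 in Dexa and 8061, 8469, 8574 and 8535 in IFNg, a log2 fold change of 3.25 ± 0.08. IFNg lay 10.3-fold and 9.53-fold above Ctr, with no overlap. The subunits kept their proportion: the TPM ratio of Psme1 to Psme2 was 0.648 ± 0.092 in Ctr, 0.597 ± 0.079 in Dexa and 0.670 ± 0.054 in IFNg (SD), and the ranges overlapped. A near copy of Psme2 on chromosome 11, Psme2b, was assigned 152 to 268 reads in Ctr and 1259 to 2452 in IFNg, so reads may be split between them and the Psme2 value is uncertain to that extent.

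Tap1 and Tap2 form the transporter that carries peptides into the endoplasmic reticulum. Tap1 had 318, 283, 225 and 306 normalized counts in Ctr, 235, 222 and 236 in Dexa and 19733, 17934, 17954 and 17309 in IFNg. Tap2 had 251, 274, 173 and 157 in Ctr, 239, 283 and 238 in Dexa and 7721, 6773, 6338 and 5704 in IFNg. Both genes were separated between Ctr and IFNg without overlap, and Tap1 changed more, by 6.02 ± 0.09 against 4.97 ± 0.11 on the log2 scale. Per length and over all transcripts, the subunits were close in Ctr, with a Tap1 to Tap2 TPM ratio of 1.44 ± 0.24. They were apart in IFNg, with 2.71 ± 0.12. The lowest IFNg ratio, 2.60, was above the highest Ctr ratio, 1.66. In Dexa the ratio was 0.874 ± 0.127, and its highest value, 0.961, was below the lowest in Ctr, 1.11. Of the Tap2 TPM, 69.9% in Ctr and 77.1% in IFNg belonged to 1 retained-intron transcript. With protein-coding transcripts alone the subunits were farther apart in Ctr, at 1.40 to 1.69 TPM for Tap1 and 0.357 to 0.496 for Tap2. The Dexa and Ctr ratios then overlapped. Tap1 and Tap2 had 1.33 and 0.460 TPM in Dexa replicate 1, and 1.40 and 0.496 in Ctr replicate 3.

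Tapbp encodes tapasin, which bridges TAP and the empty class I molecule and edits its peptides. Tapbpl encodes TAPBPR, a related editor that works outside the loading complex. Tapbp had 697, 498, 310 and 412 normalized counts in Ctr, 548, 403 and 363 in Dexa and 7727, 7842, 8087 and 7877 in IFNg. Its Ctr libraries were the most variable of the 10 genes, whereas its IFNg libraries were almost level: the SD over litters of log2 normalized counts was 0.49 in Ctr and 0.03 in IFNg, beside medians over all tested genes of 0.27 and 0.25. The log2 fold change was 4.10 ± 0.15. Its litter differences ran from 3.47 to 4.71, a width set by the Ctr libraries. Tapbp overlaps the gene Gm19412 on the other strand (55.5 to 186 reads in Ctr) and Zbtb22 on its own strand (1024 to 2417 reads in Ctr). The Tapbp transcripts that reach Zbtb22, Tapbp-203 and Tapbp-209, had 0 TPM in every full library, so the Tapbp values come from transcripts outside Zbtb22. How the reads of shared stretches were divided among these genes is not stated.

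Tapbpl was the scarcest of the 10 in IFNg, by normalized counts and by TPM over all transcripts. It had 83.5, 82.4, 68.9 and 79.3 normalized counts in Ctr, 63.7, 87.6 and 41.9 in Dexa and 2701, 2515, 2436 and 2190 in IFNg, a log2 fold change of 4.98 ± 0.13. Its Ctr libraries were close to each other and far below IFNg, and the Dexa library of replicate 4, at 24 reads, was the lowest of all. The TPM of Tapbp was 7.48 ± 3.76 times that of Tapbpl in Ctr and 3.38 ± 0.15 times in IFNg, with a lowest Ctr ratio of 4.46 above the highest IFNg ratio of 3.54. Tapbpl lies wholly within Vamp1, on the other strand, which had 167 to 306 reads in Ctr and 140 to 177 in IFNg. Tapbpl itself had 73 to 133 reads in Ctr. How reads of the shared stretch were divided is not stated, so the Ctr level of Tapbpl is uncertain to that extent.

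Erap1 encodes the ER aminopeptidase that trims peptides to the length class I binds. It had 471, 544, 470 and 532 normalized counts in Ctr, 552, 565 and 524 in Dexa and 7184, 8283, 7524 and 8424 in IFNg. Its fold change was the steadiest over litters, with an SD of 0.04 on the log2 scale over the 4 litters, and was 3.96 ± 0.08 in the fit. Replicates 2 and 4 were the higher ones in both Ctr and IFNg.

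Against the untreated cells all 10 genes were called higher in IFNg by DESeq2 with the litter as a block, where 15.2% of tested genes were. All 10 also passed a log2 fold change of 1.5, which 3.28% of tested genes did, and for all 10 every IFNg library exceeded every Ctr library, as for 8.66% of tested genes. The adjusted p was too small to be represented for 8 of them and at most 1.21e-170, for Tapbp. The quasi-likelihood test of edgeR with the same block gave adjusted p from 1.22e-11 to 2.43e-08. Without the block the 10 genes were called higher as well, where 8.02% of tested genes were. The median log2 fold change was 4.76 over the 10 genes and -0.01 over all tested genes. Ranked from the highest fold change of 17919, Psmb8 was at 60, Psmb9 at 77, Tap1 at 141 and Psme2, the last of them, at 279. Their TPM summed to 68.6 ± 4.6 in Ctr, 69.0 ± 2.7 in Dexa and 1735 ± 172 in IFNg.

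In the order of fold change, Psmb8 stood above Psmb9, Psmb9 above Tap1, and Tap1 above Tapbpl in 4 of 4 litters. Tapbpl and Tap2 could not be ordered (higher in 2 of 4 litters each, mean difference -0.02 ± 0.29, SD), nor could Tapbp and Erap1 (0.14 ± 0.49) or Psme1 and Psme2 (0.12 ± 0.16). The order of levels per length was another one. In Ctr, Psme2 led with 23.9 ± 3.7 TPM, followed by Psmb10 with 16.0 ± 3.3 and Psme1 with 15.3 ± 1.5, of which the last pair held its order in 2 of 4 libraries. Psmb8, Tapbpl and Psmb9 were last in Ctr, with 0.860 ± 0.221, 0.674 ± 0.060 and 0.351 ± 0.096 TPM. In IFNg, Psmb8 led with 451 ± 42 TPM, followed by Psmb10 with 355 ± 59, Psme2 with 267 ± 30, Psme1 with 178 ± 15, Tap1 with 148 ± 19 and Psmb9 with 131 ± 10. Tapbp had 80.4 ± 7.6, Tap2 54.9 ± 9.0, Erap1 46.5 ± 7.3 and Tapbpl 23.9 ± 3.3 TPM. Each neighbouring pair in that order kept it in 4 of 4 IFNg libraries. Psmb8 thus moved from place 12605 to place 139 among 55536 genes by mean TPM. These orders are those of all transcripts. With protein-coding transcripts alone, Tap2 (10.8 to 14.3 TPM) lay below Tapbpl (20.6 to 27.5) in 4 of 4 IFNg libraries. Psmb10 (102 to 147 TPM) then lay below Psme1 (137 to 174) in 4 of 4. In Ctr, Psmb10 had 2.40 to 3.92 coding TPM, beside 12.4 to 15.4 for Psme1.

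**Figure D3:**
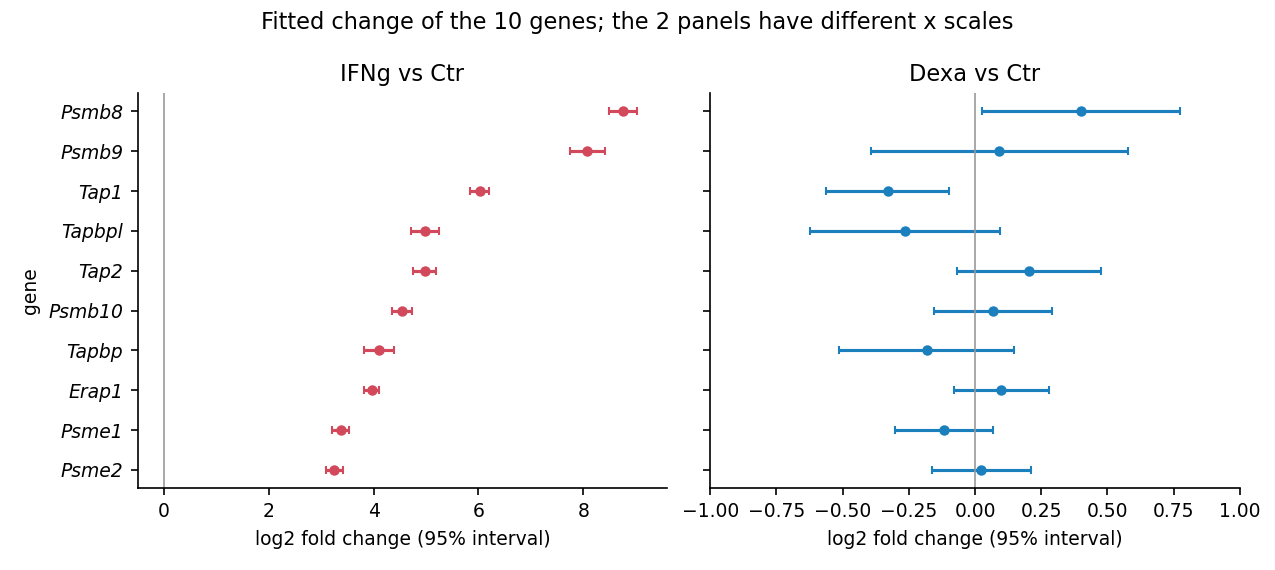
Log2 fold change (x axis, with 95% interval) of the 10 genes (y axis) in IFNg against Ctr on the left and Dexa against Ctr on the right, where the scale is narrower. Values run from 3.25 to 8.76 on the left and from -0.33 to 0.40 on the right.

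After dexamethasone none of the 10 genes was called by DESeq2 with the litter block, where 2.5% of tested genes were, and none without it, where 0.536% were. Before adjustment 2 of 10 had p under 0.05 in DESeq2, and 2 of 10 in edgeR, which called none. No member had Dexa and Ctr groups without overlap, as 4.26% of tested genes had. The fold changes lay between -0.33 and 0.40 on the log2 scale, with a median of 0.05, and their 95% intervals between -0.62 and 0.77. Tap1 had -0.33 ± 0.12 (adjusted p = 0.151, DESeq2) and was lower in Dexa than in Ctr of the same litter in 3 of 3 litters, by 0.35 to 0.43 on the log2 scale. Its Dexa libraries overlapped only with Ctr replicate 3, at 225 normalized counts, a litter whose Dexa library does not list Tap1 whole. Without Ctr replicate 3 the adjusted p of Tap1 was 0.0310, without IFNg replicate 3 it was 0.0294, and with transcript length as an offset it was 9.46e-05 at -0.53, all DESeq2. Either leave-out keeps a single library in the block of replicate 3, so both are nearly the same fit here. Psmb8 had 0.40 ± 0.19 (adjusted p = 0.497, DESeq2) from 28 to 74 reads per Dexa library, and was higher in 2 of 3 litters. Tapbp was lower in 3 of 3 litters, by 0.18 to 0.35, at a fitted -0.18 ± 0.17 (adjusted p = 0.956, DESeq2). For the 3 genes that Dexa replicate 3 lists whole, its difference from Ctr of that litter was 0.11 for Psme1, -0.13 for Psme2 and 0.04 for Erap1, and 12 libraries gave no call either.

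Set against each other, the treated groups differed as IFNg and Ctr did. This comparison uses the same IFNg libraries and the same fit as IFNg against Ctr, so it is not an independent result. All 10 genes were called higher in IFNg than in Dexa, where 16.2% of tested genes were, with fold changes from 3.23 ± 0.09 for Psme2 to 8.36 ± 0.16 for Psmb8 (largest adjusted p 5.52e-144, DESeq2, and 8.23e-08, edgeR with block).

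Salmon also divides each gene's level among its annotated transcripts, some of which keep an intron and encode no full protein. The protein-coding share of TPM was high and similar in Ctr and IFNg for Psme1 (88.4% ± 3.4 and 88.7% ± 1.8), Psme2 (87.3% ± 2.1 and 84.9% ± 1.5) and Erap1 (95.5% ± 2.7 and 96.1% ± 0.7). It was low for Psmb10 (19.9% ± 2.2 and 34.9% ± 1.8) and Tap2 (30.1% ± 7.2 and 22.9% ± 0.9). Between them stood Psmb8 (64.0% ± 11.4 and 53.4% ± 1.0), Psmb9 (85.4% ± 6.5 and 70.6% ± 3.4), Tap1 (73.7% ± 6.2 and 80.8% ± 1.4) and Tapbp (76.3% ± 6.5 and 86.8% ± 3.4). Tapbpl has 1 annotated transcript. For Psmb10 the lowest IFNg share, 33.5%, was above the highest Ctr share, 22.9%, and with protein-coding transcripts alone its log2 fold change was 5.10 in place of 4.54. In IFNg a protein-coding Psmb8 transcript of 840 bases had 226 TPM, another of 1628 bases 15.1 TPM and a retained-intron transcript of 1234 bases 180 TPM. Under Ctr and Dexa the shorter coding transcript took 47.4% ± 2.9 and 41.5% ± 18.3 of the Psmb8 TPM and the longer one 16.7% ± 12.6 and 37.5% ± 25.8, values that rest on few reads. Libraries were made from total RNA depleted of ribosomal RNA, which keeps unspliced RNA. With protein-coding transcripts alone all 10 genes were still called higher in IFNg.

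**Figure D4:**
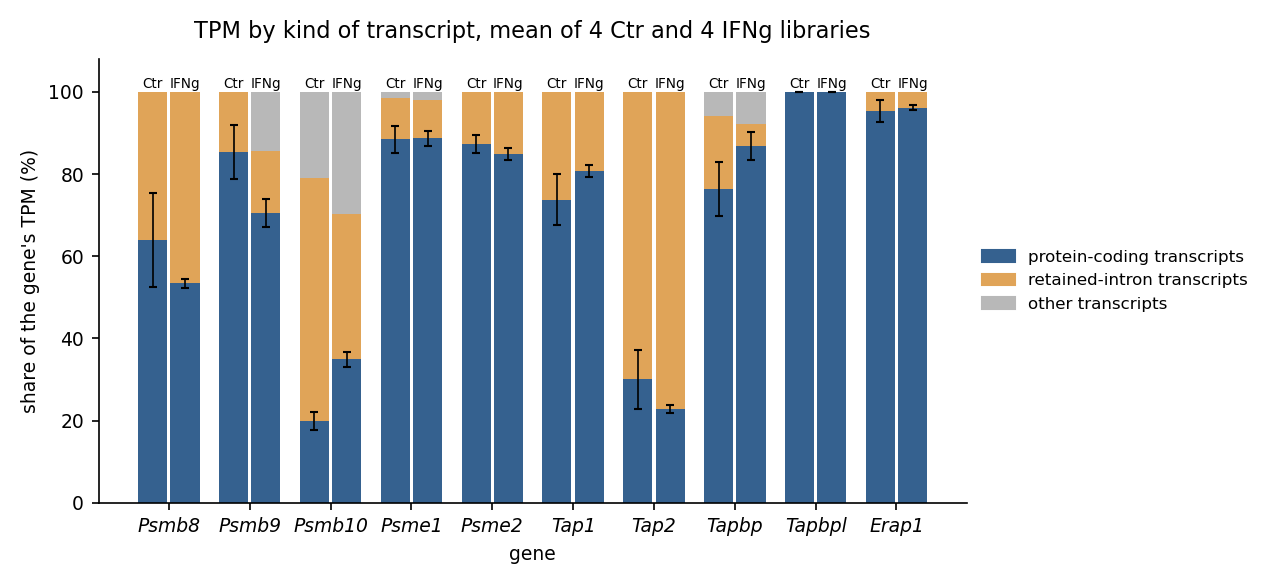
Share of each gene's TPM (y axis, percent) by kind of annotated transcript for the 10 genes (x axis), as means of 4 Ctr and 4 IFNg libraries, with bars for the SD of the protein-coding share. The protein-coding share is lowest for Psmb10 in Ctr (19.9%) and for Tap2 in IFNg (22.9%).

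Of the pathway's 38 other genes, all tested, 22 were called higher and 0 lower in IFNg, where 15.2% of all tested genes were called higher. The 11 remaining subunits of the 20S core, which form the walls of the barrel, were all called higher, by 0.18 to 0.72 on the log2 scale with a median of 0.47. Psmb2, Psma5 and Psma2 led with 0.72 ± 0.07, 0.55 ± 0.06 and 0.52 ± 0.06. edgeR with the block called 11 of 11 too, and DESeq2 without it 9 of 11. Of the 3 constitutive catalytic subunits only Psmb7 was called, at 0.20 ± 0.06, and it was not called without the block (adjusted p = 0.393, DESeq2). Psmb5 had 0.03 ± 0.08 and Psmb6 0.11 ± 0.08. Of 8 other activators, inhibitors and assembly factors, 2 were called: Pomp, the maturation factor of the barrel, at 0.62 ± 0.07 and the assembly chaperone Psmg4 at 0.90 ± 0.13.

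Among the loading partners and class I genes, 4 of 6 were called higher. These were B2m (β2-microglobulin) at 5.64 ± 0.12, the heavy chains H2-K1 at 5.87 ± 0.33 and H2-D1 at 5.63 ± 0.07, and Pdia3 (ERp57, a disulfide isomerase of the loading complex) at 0.38 ± 0.07. H2-K1 was spread from 346 to 1426 normalized counts in Ctr and from 39095 to 43768 in IFNg, and class I heavy chains resemble each other closely, so reads may be divided among them. The chaperones Calr and Canx, named here after their values were seen, had 0.14 ± 0.06 and 0.12 ± 0.06 (adjusted p = 0.0621 and 0.128, DESeq2). Of 7 other trimming peptidases 1 was called, a share near that of all tested genes (15.2%): the cytosolic leucine aminopeptidase Lap3, at 2.01 ± 0.07. Of the inducers, the class I transactivator Nlrc5 was called at 9.46 ± 0.29 and Irf1 at 6.02 ± 0.08. Nlrc5 rested on 16 to 42 reads per Ctr library, so the size of its fold change is imprecise. After dexamethasone 0 of the 38 genes were called by DESeq2 (2.5% of all tested genes were) or edgeR, 1 had p under 0.05 before adjustment in each tool, and the fold changes lay between -0.31 and 0.26 with a median of -0.08. Between IFNg and Dexa 27 of the 38 genes were called higher in IFNg (16.2% of all tested genes were), among them Psmb4 of the 20S core at 0.54 ± 0.07, the proteasome inhibitor Psmf1 at 0.26 ± 0.09 and the peptidase Blmh at 0.20 ± 0.07.

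**Figure D5:**
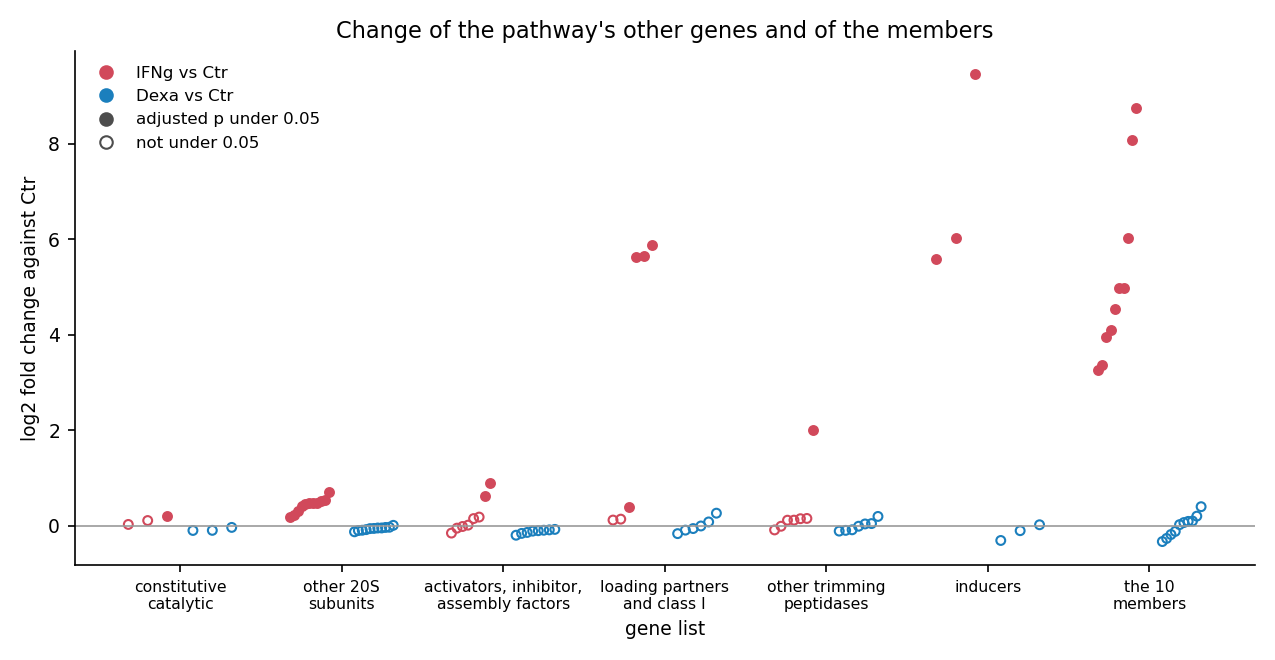
Log2 fold change against Ctr (y axis) of the genes of 6 pathway lists and of the 10 members (x axis), in red for IFNg and blue for Dexa, filled where the DESeq2 adjusted p was under 0.05. The 20S subunits lie between 0.18 and 0.72 in IFNg, while 3 class I genes and the inducers lie above 5.

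Among the other genes whose centred log2 profile over the 11 full libraries came nearest to the mean profile of the 10 genes were H2-D1 and H2-DMa, with root mean square differences of 0.21 and 0.24. The rule also picked Serpina3g and Ubd, whose distance depends on the pseudocount of 1 and is not given. Of the members themselves, Tapbpl (0.25) and Tap2 (0.26) were nearest to that mean and Psmb8 (1.67) farthest. H2-DMa encodes a chain of the class II peptide editor and had 106 to 152 normalized counts in Ctr and 3983 to 5158 in IFNg. Ubd encodes a ubiquitin-like modifier that targets proteins to the proteasome. Ubd and Serpina3g had 0 reads in every Ctr and full Dexa library and so passed the filter through IFNg alone. A count of 0 allows up to 3 reads each for counting error. In IFNg they had 29.8 to 55.2 and 25.6 to 40.6 normalized counts.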

How the data were processed

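Total RNA of cultured OPCs was depleted of ribosomal RNA in a strand-specific library preparation, and 4 libraries per group were sequenced from both ends. Per the labels and the study's methods, the authors trimmed reads, named STAR for alignment and ran Salmon 0.8.2. The deposited table of a library gives, per transcript, an estimated count and a value in TPM. Further deposited tables hold the authors' own DESeq2 comparisons and were not used. All 141862 transcripts matched GENCODE M21 (GRCm38). The table of Dexa replicate 3 ends after 47855 of them (33.73%), so that library entered only fits over the 19130 genes it lists whole, not the fit over all genes.

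Estimated counts were summed per gene and rounded. Genes reaching 10 counts in 4 or more libraries were fitted with DESeq2 1.42.0 (Wald test, replicate number as a block, no shrinkage), and called at a Benjamini-Hochberg adjusted p under 0.05. The labels and methods say that replicates came from different litters. Libraries of the same number deviated together (r of 0.500 to 0.869 in 10 pairs), and those of different numbers had r of -0.840 to 0.695. The ranges overlap, so r alone does not settle the pairing. The numbers were taken to pair the libraries. Alternatives were edgeR 4.0.16, no block, TMM factors, no filter, transcript length as an offset, protein-coding transcripts alone and each library left out. The DESeq2 and edgeR fits with the block were tested on simulated data, for IFNg and Dexa against Ctr. The other settings were not part of that test. TPM was used per length, between genes of one library, and its values are also printed by group. Its scale itself shifted: over all tested genes the median log2 ratio of mean TPM, IFNg over Ctr, was 0.15. Differences in TPM between groups include this shift. Intervals are 95% and rest on the spread left after the replicate block, which DESeq2 moderates across genes. They do not directly measure a gene's own spread over litters. PCR duplicates count as separate reads. Shares were compared by exact permutation of libraries. The members and gene lists were chosen with earlier results of these data known. The genes named are the 10 members, Psmb5, Psmb6, Psmb7, B2m, H2-K1, the treatment checks, up to 3 called genes with the lowest adjusted p in each other pathway list, and the 5 nearest profiles (log2 of normalized count plus 1); 1 gene that this rule selects is not reported here.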

Additional observations from a re-analysis of the deposited data

How the results depend on the processing

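The 10 members were called higher in IFNg against Ctr and against Dexa under every alternative that lists them whole: 10 of 10 with each library left out, and 3 of 3 in the 12-library fit. Without the replicate block they kept 10 of 10 calls, and the paired design changed no member's call in any comparison. The pathway genes called in IFNg numbered 22 in the paired fit, 20 with no replicate block, 23 in edgeR with it, 19 in edgeR without it, and 19 to 22 with each library left out. None was called in Dexa under any setting. The members called in Dexa rose from 0 to 1 with transcript length as an offset and ranged from 0 to 1 with each library left out. The gene was Tap1 each time (-0.53, then -0.39 without Ctr replicate 3 and -0.39 without IFNg replicate 3), and the cause was not tested. Either leave-out in replicate 3 keeps a single library in that block. For Dexa against Ctr both are thus nearly the same fit, also for Psmb9 below. Uncalled Dexa values changed sign for Psmb9 (-0.14 to 0.38 with each library left out: -0.14 without Dexa replicate 1, -0.02 without Ctr replicate 3, -0.03 without IFNg replicate 3), Psme2 (-0.0062 with 12 libraries, -0.048 to 0.097 with each library left out, the lowest without Dexa replicate 4) and Erap1 (-0.032 with the length offset). The immunosubunit shares rose by 80.5 to 82.2, 37.4 to 38.6 and 59.5 to 60.7 percentage points for Psmb8, Psmb9 and Psmb10 in IFNg with each library left out, and in Dexa they differed by -0.0021 to 0.22, 0.02 to 0.14 and 0.92 to 2.39 points, the first changing sign without Ctr replicate 1. A paired exact sign-flip test gave an adjusted p of 0.25 for each IFNg share, and 0.125 is the smallest unadjusted p that 4 litters allow. Coding transcripts alone, chosen after seeing the data, gave IFNg differences of 70.5, 34.6 and 47.8 points. Psmb8 and Psmb9 rest on 30 to 79 and 21 to 49.1 reads per Ctr library, which limits the precision of their fold changes.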
